A study of Mus musculus with 12 samples.

Results

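CD8+ NKT-like cells were compared with cultured CD4+ T cells across all genes on 8 of the 12 arrays of the study, 5 for the CD8+ NKT-like cultures and 3 for the CD4+ cultures. The labels name the first group as expanded CD8 T cells with a suppression function and the second as expanded CD4 T cells with less suppression, and the arrays were taken by these titles alone. Both groups came from spleen T cells of female C57BL/6 mice, aged 8 to 12 weeks by the labels, and were expanded in separate cultures on beads that carried antibodies to CD3 and CD28, in a high dose of IL-2. CD8+ cells had been enriched magnetically by negative selection and CD4+ cells by flow sorting, so the lineage and the way the starting cells were purified cannot be told apart in this comparison. The time in culture of each array is not given in the labels. The other arrays, 2 of naïve CD8+ T cells and 2 of CD8+ T cells activated with soluble anti-CD3 and anti-CD28, entered the fit and are given only as levels beside the comparison.

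CD8+ T cells kill target cells with perforin, which opens membranes, and granzymes, the proteases that enter through it, and after long stimulation with IL-2 some of them carry receptors first described on NK cells. CD4+ T cells act mainly through secreted cytokines, among them IL-4 and IL-13 of the type 2 response and IL-21. The arrays measured RNA of whole cultures, so fewer cells of a kind and less RNA per cell cannot be told apart. Values are the authors' log2 RMA signals per probe set, whose median over all arrays was 6.3, and each gene is represented by 1 probe set. A ratio is the NKT-like signal over the cultured CD4+ signal, 2 to the power of the difference of the group means, and a gene passed at a Storey q of 0.01 or less in limma. Signals at the low end of the scale hold array background, so the ratio of a gene that is low in a group depends on that background.

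The coreceptor genes followed the labels. Cd8a read 9.94, 11.57, 11.04, 10.64 and 11.37 on the 5 NKT-like arrays, against 6.42, 6.92 and 6.84 on the 3 cultured CD4+ arrays. Cd4 read 6.88, 6.79, 7.08, 6.76 and 7.02 in NKT-like cells, against 9.82, 10.10 and 10.09 in cultured CD4+ cells. The ratios were 18.2 for Cd8a and 0.117 for Cd4, and 16.4 and 0.11 without cultured CD4+ replicate 1. No array lay between the groups for either gene, and the T cell receptor component Cd3e was high in both, at 10.77 ± 0.33 (SD, n = 5) in NKT-like cells and 10.23 ± 0.04 (SD, n = 3) in cultured CD4+ cells.

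Cultured CD4+ replicate 1 stood apart from the other cultured CD4+ arrays. It correlated with replicates 2 and 3 at r = 0.981 and 0.978 over all probe sets, while replicates 2 and 3 correlated at 0.995, and it lay at 56.1 on the second principal component of the 8 arrays, against -18.5 and -25.3 for the others. In replicate 1, 81 genes were at least 2-fold above both other cultured CD4+ arrays and 361 at least 2-fold below both. Ratios are therefore given with all arrays and, for most genes, also without this array. The first component, 51% of the variance, separated the groups, with NKT-like arrays at -20.8 to -48.6 and cultured CD4+ arrays at 55.3 to 59.9. As a sign of RNA quality, the 3′ probe set of Gapdh exceeded the 5′ one by 1.28 to 1.73 in NKT-like replicates 1 to 4 and by 0.12 in replicate 5, against 1.5 to 1.59 in cultured CD4+ arrays, and the part of this in the results was not tested.

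**Figure D1:**
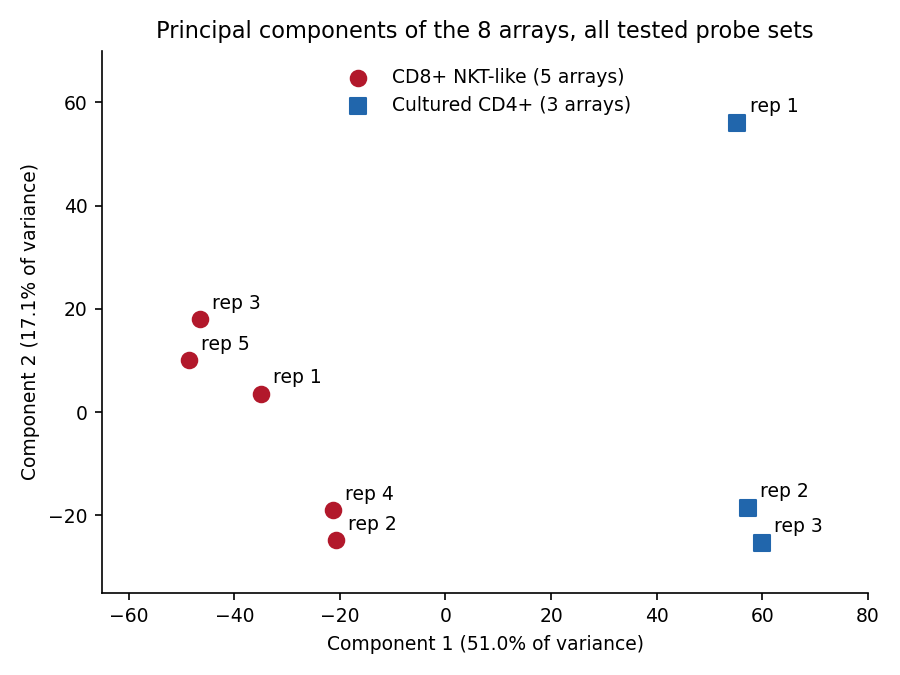
Principal components of the 8 arrays over 45037 probe sets, with component 1 (51% of the variance) across and component 2 (17.1%) up, in units of log2 signal. The 5 NKT-like arrays (circles) lie left of the 3 cultured CD4+ arrays (squares), and cultured CD4+ replicate 1 lies at 56.1 on component 2.

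Of 45037 probe sets, 316 (0.702%) were at least 2-fold higher in NKT-like cells and 447 (0.993%) at least 2-fold lower at q of 0.01 or less, 1.69% in all. Counted by gene and at any fold, 220 of 18193 genes (1.21%) were higher and 328 (1.8%) lower, 3.01% in all. The groups of arrays did not overlap for 1217 genes (6.69%) that were higher and 1447 genes (7.95%) that were lower. Large ratios were found on both sides, with 22 genes at least 10-fold higher and 25 at least 10-fold lower. Without cultured CD4+ replicate 1, 148 genes (0.813%) were higher and 322 (1.77%) lower, and 381 of the 548 passing genes passed in the same direction in both fits. The counts of probe sets were smaller without cultured CD4+ replicate 2, at 177 higher and 267 lower, and without replicate 3, at 175 higher and 264 lower.

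**Figure D2:**
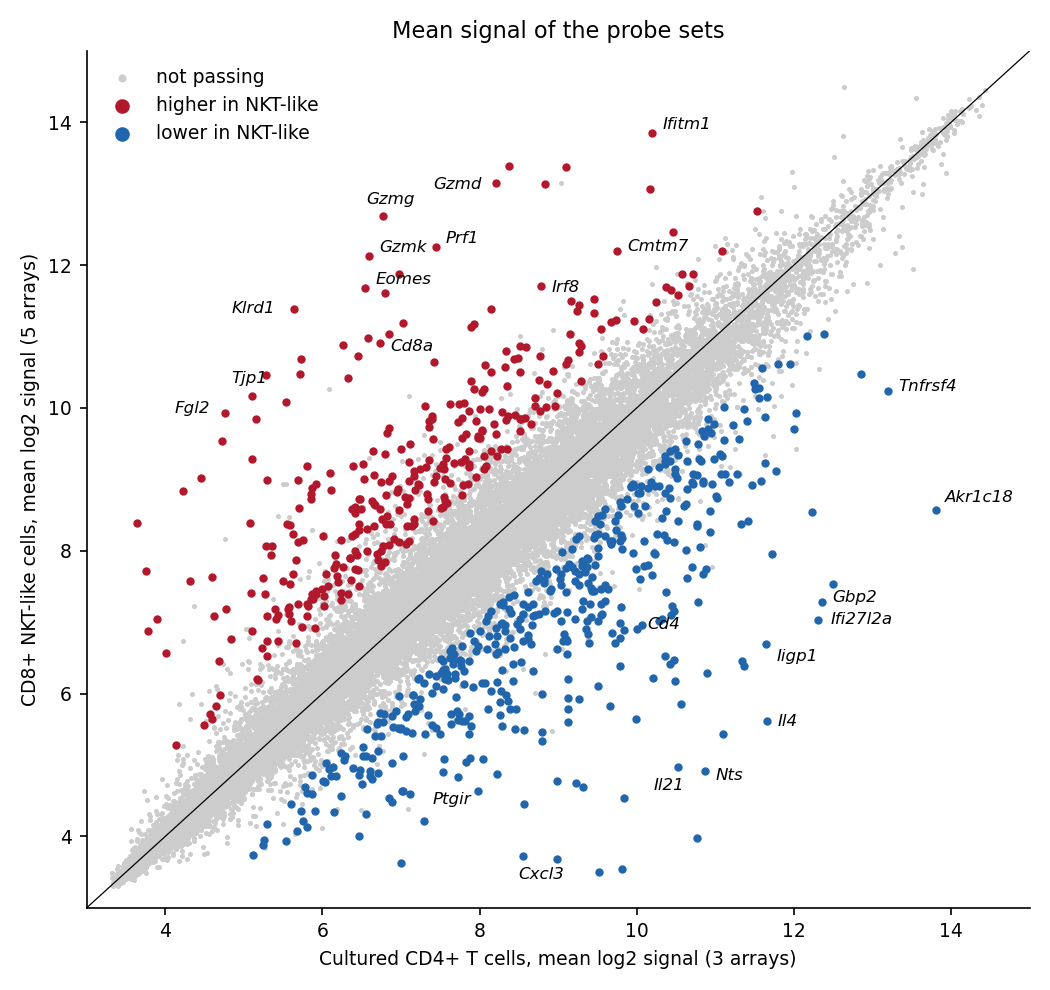
Mean log2 signal of each probe set in cultured CD4+ T cells (across, 3 arrays) and CD8+ NKT-like cells (up, 5 arrays). Coloured points are the probe sets at least 2-fold apart at q of 0.01 or less, 316 above and 447 below the line of equal signal.

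Genes were then read by role in 34 lists. The median difference over all genes was 0 on the log2 scale (0.03 without cultured CD4+ replicate 1), and 1.21% of all genes passed as higher and 1.8% as lower, which are the backgrounds for the counts of list members that follow. The lists farthest from that median were perforin and granzymes at 4.56 and helper cytokines at -2.59, followed by interferon-induced membrane proteins and GTPases at -1.97, mitosis genes at -1.15 and DNA replication genes at -0.80. The lists were chosen with earlier results of these arrays known.

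**Figure D3:**
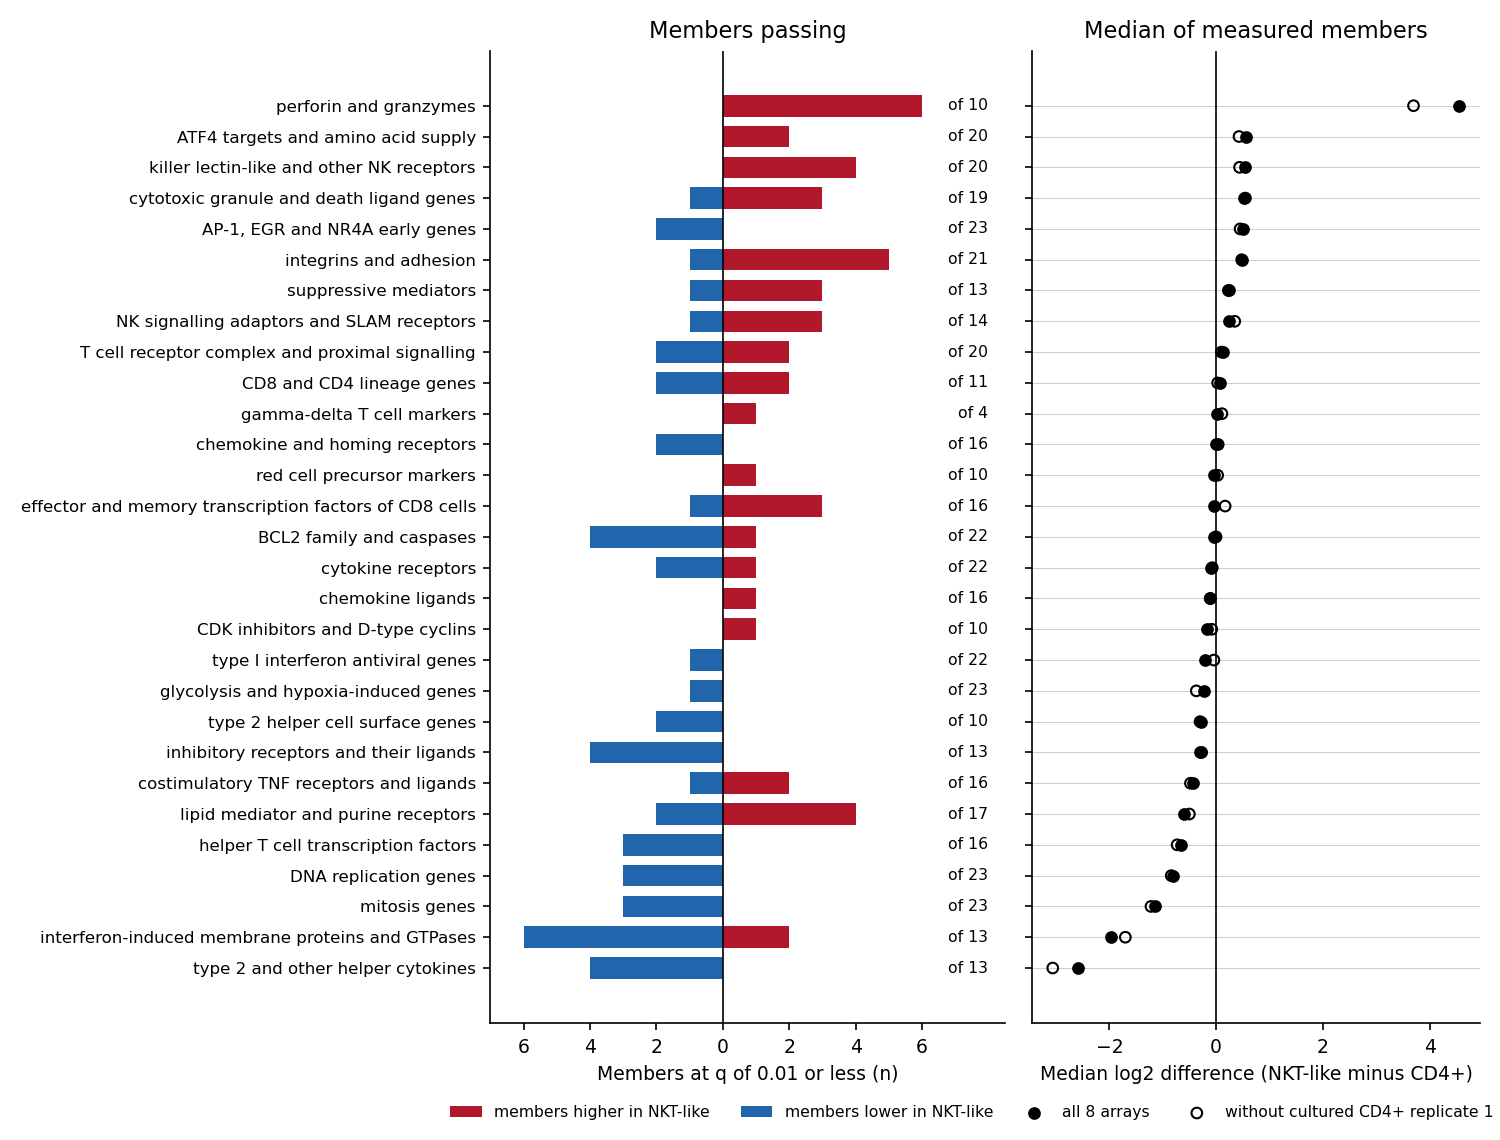
Left, members of each list that passed as higher (right of 0) or lower (left of 0) in NKT-like cells, beside the number measured. Right, the median log2 difference, NKT-like minus cultured CD4+, of all measured members with all arrays (filled) and without cultured CD4+ replicate 1 (open), which ran from -2.59 to 4.56 with all arrays; lists without a passing member are not drawn.

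Killing genes were the most strongly upregulated group in CD8+ NKT-like cells. Of 10 measured perforin and granzyme genes, 6 were higher and none lower, and for all 10 the groups of arrays did not overlap. Gzmg read 11.78, 12.53, 13.07, 12.66 and 13.36 in NKT-like cells, against 5.32, 7.42 and 7.58 in cultured CD4+ cells, a ratio of 59.9 (q = 3.4e-05) and of 36.2 without cultured CD4+ replicate 1. Gzmk, whose product is a trypsin-like granzyme, read 11.59, 12.49, 12.72, 11.61 and 12.22 in NKT-like cells, against 6.53, 6.56 and 6.70 in cultured CD4+ cells, a ratio of 46.3 (q = 8.3e-07) and 45.2 without replicate 1. The lowest NKT-like array was thus far above the highest cultured CD4+ array for both granzymes. Prf1, which encodes perforin, read 11.49, 11.61, 12.79, 11.89 and 13.45 in NKT-like cells, against 6.72, 7.73 and 7.87 in cultured CD4+ cells, a ratio of 28.0 (q = 9.6e-05) and 21.8 without replicate 1. The level of Prf1 in cultured CD4+ cells, 7.44 ± 0.63, was close to the 7.39 of naïve CD8+ cells.

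Gzmd, Gzme and Gzmf, the other passing granzymes, had ratios of 30.7, 19.7 and 36.1, and of 16.2, 10.4 and 33.5 without cultured CD4+ replicate 1. They belong with Gzmg to a cluster of closely related mouse granzyme genes. Among the probe sets with 1 gene symbol, Gzme has only a set marked as binding several sequences, and signal shared among these genes was not tested. Gzmd showed how far cultured CD4+ replicate 1 lay from the rest, reading 13.14, 13.24, 12.92, 12.93 and 13.53 in NKT-like cells, against 6.37, 9.38 and 8.90 in cultured CD4+ cells. Gzmc went further and read 13.10, 13.30, 12.78, 13.04 and 13.55 in NKT-like cells, against 5.56, 10.83 and 10.71 in cultured CD4+ cells. Its ratio was 17.4 with all arrays (q = 0.031) and 5.2 without replicate 1 (q = 0.00067), so it passed only in the second case. Over the list, the median difference was 4.56 with all arrays and 3.7 without replicate 1, where 7 of 10 members were higher.

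Of the other granzymes, Gzma, Gzmb and Gzmm passed neither with all arrays nor without cultured CD4+ replicate 1. Gzmb, which encodes the main caspase-activating granzyme, read 14.33, 14.32, 14.32, 14.38 and 14.37 in NKT-like cells, against 12.71, 13.99 and 13.95 in cultured CD4+ cells, a ratio of 1.74 (q = 0.14) and 1.30 without replicate 1 (q = 0.25). Gzma read between 14.37 and 14.55 in NKT-like cells, against 11, 13.49 and 13.45 in cultured CD4+ cells (ratio 3.6, q = 0.052; 2.03, q = 0.032 without replicate 1). Gzmm had 6.96 ± 0.07 in NKT-like cells and 6.69 ± 0.15 in cultured CD4+ cells (ratio 1.21, q = 0.48; 1.27, q = 0.29 without replicate 1).

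**Figure D4:**
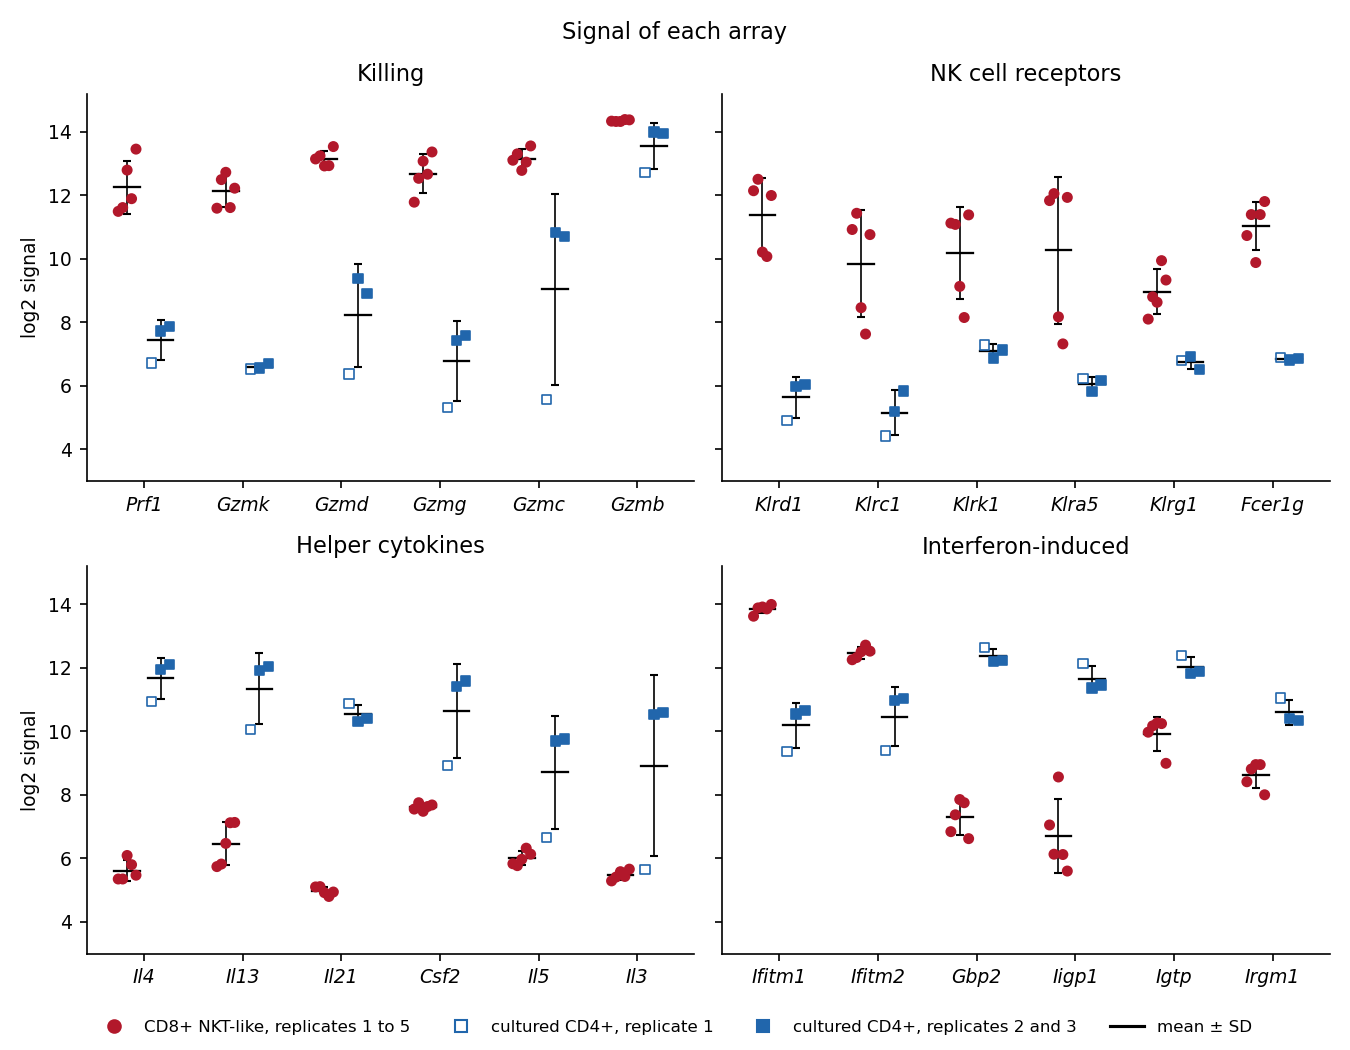
log2 signal of each array for genes of killing, NK cell receptors, helper cytokines and interferon-induced proteins, with NKT-like arrays (circles) left of cultured CD4+ arrays (squares; replicate 1 open) and the mean ± SD of each group. Gzmk is at 12.1 in NKT-like and 6.59 in cultured CD4+ cells and Il4 at 5.61 and 11.7, and cultured CD4+ replicate 1 is far below replicates 2 and 3 for Gzmc, Il5 and Il3.

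Granule and death ligand genes outside the granzyme family moved less. Of 19 measured, 3 were higher and 1 lower, with a median of 0.52. Ctsw, which encodes the lymphocyte protease cathepsin W, had 11.52 ± 0.11 in NKT-like cells and 9.45 ± 0.56 in cultured CD4+ cells (SD, n = 5 and 3), a ratio of 4.21 (q = 0.0024) and 3.37 without replicate 1 (q = 0.0081). Serpinb9, an inhibitor of granzyme B, had a ratio of 4.78 (q = 0.0066) and 3.00 without replicate 1, and the granule serpin gene Serpinb6a one of 2.87 (q = 0.0084) and 2.80 without replicate 1. The last call was lost without replicate 1 (q = 0.026), and also without cultured CD4+ replicate 2 or 3, NKT-like replicate 1, 2, 4 or 5 or either naïve array (up to 0.042), and that of Serpinb9 without cultured CD4+ replicate 3, any NKT-like array or either naïve array (up to 0.018). Stx11, which encodes a syntaxin of granule release, was lower at a ratio of 0.406 (q = 0.0019), with a q of up to 0.016 when cultured CD4+ replicate 2 or 3 was left out. Fasl, the ligand of the death receptor Fas, read 10.77 to 11.57 in NKT-like cells, against 6.52, 9.51 and 9.52 in cultured CD4+ cells. At the probe set that stands for the gene, it passed only without replicate 1 (ratio 5.65, q = 0.028 with all arrays; ratio 2.83, q = 0.0053 without). Of the 2 probe sets of Fasl, the other 1 passed as higher with all arrays.

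NK cell receptors were high in the NKT-like cultures for some genes and at the low end of the scale for many. Of 20 measured killer lectin-like and other NK receptors, 4 were higher and none lower, and 9 did not overlap between groups. Klrb1c, the gene of NK1.1, had no probe set of its own here and was not among them. Klrd1, which encodes CD94, read 12.14, 12.50, 10.21, 10.07 and 11.99 in NKT-like cells, against 4.90, 5.97 and 6.05 in cultured CD4+ cells, a ratio of 53.4 (q = 0.00015) and 41.3 without cultured CD4+ replicate 1 (q = 0.00086). Naïve CD8+ cells had 11.4 for the same gene and activated CD8+ cells 7.79, so the level of Klrd1 in NKT-like cells was near that of naïve CD8+ cells. Klrc1, which encodes NKG2A, the inhibitory partner of CD94, read 10.92, 11.43, 8.46, 7.63 and 10.76 in NKT-like cells, against 4.42, 5.19 and 5.84 in cultured CD4+ cells, a ratio of 25.8 (q = 0.0052). Its call was lost without replicate 1 (ratio 20.1, q = 0.021) and without cultured CD4+ replicate 2 or 3, NKT-like replicate 1 or 5 or either naïve array, with a q of up to 0.03. Replicates 3 and 4 of the NKT-like cells were the lowest for both genes.

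The same arrays were low for other receptors of the family. Klrk1, which encodes the activating receptor NKG2D, read 11.12, 11.08, 9.13, 8.15 and 11.38 in NKT-like cells, against 7.29, 6.88 and 7.13 in cultured CD4+ cells, without overlap (ratio 8.4, q = 0.019; 8.98 and q = 0.038 without replicate 1). Klra5, which encodes a Ly49 receptor, read 11.83, 12.05, 8.17, 7.32 and 11.93 in NKT-like cells, against 6.23, 5.83 and 6.16 in cultured CD4+ cells (ratio 18.2, q = 0.038; 19.2 and q = 0.068 without replicate 1). Neither gene passed, and their NKT-like arrays were spread over more than 3 log2 units. Klrg1, an inhibitory receptor that binds cadherins, read 8.10, 8.80, 8.63, 9.94 and 9.33 in NKT-like cells, against 6.79, 6.92 and 6.52 in cultured CD4+ cells, a ratio of 4.64 (q = 0.0033) and 4.71 without replicate 1 (q = 0.011), and Cd160 had a ratio of 3.69 (q = 0.0055) and 3.38 (q = 0.022), its call being lost also without NKT-like replicate 1 or 5 (up to 0.027 over all arrays). Without any one of the 3 cultured CD4+ arrays only Klrd1 of the list passed, and without NKT-like replicate 1 or 5 the count was 2. The NK cell gene Ncr1, which encodes NKp46, was at 6.11 in NKT-like cells and 5.99 in cultured CD4+ cells, below the median of all values.

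Signalling partners of these receptors were mostly not past the threshold. Of 14 adaptors and SLAM family genes, 3 were higher and 1 lower (2 and 2 without cultured CD4+ replicate 1). Fcer1g, the common gamma chain of Fc and several NK receptors, read 10.73, 11.39, 9.88, 11.39 and 11.80 in NKT-like cells, against 6.89, 6.81 and 6.85 in cultured CD4+ cells, a ratio of 18.2 (q = 3.6e-05) and 18.5 without replicate 1. Every NKT-like array was above every cultured CD4+ array by at least 2 log2 units. Pilrb1, an activating paired immunoglobulin-like receptor, had a ratio of 6.64 (q = 0.00021; 6.52 without replicate 1) and Cd244a, which encodes 2B4, one of 4.12 (q = 0.0054; 4.29 and q = 0.015 without replicate 1, and up to 0.035 without cultured CD4+ replicate 2 or 3, NKT-like replicate 1 or 2 or either naïve array). Both of the 2 probe sets of Cd244a passed as higher, and its ratio holds only for the set that stands for the gene. At that set the NKT-like signal was 4.44 times the naïve one. The paper reports a larger rise over naïve cells for this gene, so the ratio given here may understate the difference. Tyrobp, which encodes the adaptor DAP12, had 7.72 ± 0.76 in NKT-like cells and 5.83 ± 0.31 in cultured CD4+ cells and did not pass (ratio 3.71, q = 0.011; 4.19, q = 0.017 without replicate 1), nor did the adaptor genes Hcst (1.71, q = 0.038; 1.83 without replicate 1) and Sh2d1a (0.549, q = 0.051; 0.527). Slamf1 went the other way, with 7.21 ± 0.31 in NKT-like cells and 9.80 ± 0.04 in cultured CD4+ cells (ratio 0.166, q = 6.9e-06; 0.167 without replicate 1).

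Transcription factors of CD8+ and of helper T cells separated the groups at few genes. Of 16 effector and memory factors, 3 were higher and 1 lower, and of 16 helper factors none was higher and 3 were lower. Eomes, whose T-box product drives killer lymphocyte genes, read 11.86, 11.46, 11.92, 11.74 and 11.41 in NKT-like cells, against 6.56, 6.56 and 6.50 in cultured CD4+ cells, so the arrays of each group lay close together (ratio 35.2, q = 8.9e-08; 35.5 without cultured CD4+ replicate 1). The related T-box gene Tbx21 overlapped between groups, at 8.44 to 10.10 in NKT-like cells, against 10.69, 10.16 and 9.86 in cultured CD4+ cells (ratio 0.504, q = 0.12; 0.59 without replicate 1). Bach2, a repressor of effector genes, had 7.61 ± 0.72 in NKT-like cells and 10.04 ± 0.10 in cultured CD4+ cells, a ratio of 0.186 (q = 0.0023; 0.178 without replicate 1), with a q of up to 0.018 without cultured CD4+ replicate 2 or 3.

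Gata3, the master factor of type 2 helper cells, Irf4 and Batf, a pair that acts together in helper T cells, were the helper factors that were lower. The ratios of Gata3 and Irf4 were 0.191 and 0.189, and 0.203 and 0.209 without cultured CD4+ replicate 1. Batf had 9.29 ± 0.53 in NKT-like cells and 10.98 ± 0.03 in cultured CD4+ cells (ratio 0.31, q = 0.0029; 0.306 without replicate 1). The call of Gata3 was lost without cultured CD4+ replicate 1 (q = 0.011) and without either other cultured CD4+ array (up to 0.016), and that of Batf without replicate 2 or 3 (up to 0.02). Maf, a further factor of type 2 and IL-10-producing cells, read 8.56, 8.72, 11.27, 10.98 and 7.16 in NKT-like cells, against 11.79, 11.58 and 11.51 in cultured CD4+ cells. At this probe set it did not pass (ratio 0.205, q = 0.13; 0.217 without replicate 1), and NKT-like replicates 3 and 4 lay close to the cultured CD4+ arrays. Of the 6 probe sets of Maf, 1 passed as lower. Foxp3, the factor of regulatory T cells, was at 5.23 in NKT-like cells and 5.34 in cultured CD4+ cells, at the low end of the scale in both.

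Helper cytokines were the most strongly lower group. Of 13 measured, none was higher and 4 were lower, and without cultured CD4+ replicate 1 this count was 7. Il4 read 5.35, 5.35, 6.09, 5.80 and 5.47 in NKT-like cells, against 10.93, 11.95 and 12.11 in cultured CD4+ cells, a ratio of 0.0151 (q = 2.6e-07) and 0.0117 without replicate 1. Il21, whose product helps B cells and CD8+ T cells, read 5.10, 5.11, 4.92, 4.80 and 4.94 in NKT-like cells, against 10.88, 10.31 and 10.40 in cultured CD4+ cells, a ratio of 0.0213 (q = 5.5e-09) and 0.024. Il13 read 5.74, 5.82, 6.47, 7.12 and 7.13 in NKT-like cells, against 10.05, 11.92 and 12.04 in cultured CD4+ cells, a ratio of 0.0339 (q = 0.00011) and 0.0218. The NKT-like level of Il4 was near that of naïve and of activated CD8+ cells, 5.81 in both. Csf2, which encodes GM-CSF, had 7.62 ± 0.11 in NKT-like cells and 10.64 ± 1.49 in cultured CD4+ cells (ratio 0.123, q = 0.0038; 0.068 without replicate 1), with a q of up to 0.027 without cultured CD4+ replicate 2 or 3 or NKT-like replicate 1 or 5.

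For Il3, Il5 and Il9 the call depended on cultured CD4+ replicate 1, and all 3 passed as lower only without it. Il3, a growth factor of myeloid precursors, read 5.29, 5.41, 5.58, 5.43 and 5.66 in NKT-like cells, against 5.64, 10.53 and 10.58 in cultured CD4+ cells, so the first cultured CD4+ array lay within the NKT-like range and the others far above it. Its ratio was 0.092 with all arrays (q = 0.053) and 0.0295 without replicate 1 (q = 2.7e-06). Il5, the eosinophil factor, read 5.77 to 6.32 in NKT-like cells, against 6.66, 9.69 and 9.76 in cultured CD4+ cells (ratio 0.154, q = 0.019; 0.076, q = 2.3e-06 without replicate 1). Il9, a mast cell growth factor, had 7.10 ± 0.07 in NKT-like cells and 7.85 ± 0.57 in cultured CD4+ cells, with overlap (ratio 0.599, q = 0.063; 0.476, q = 0.00052 without replicate 1). Il10, an inhibitory cytokine, was high in both groups and overlapped, at 8.86, 10.31, 12.33, 12.21 and 10.12 in NKT-like cells, against 11.69, 12.46 and 12.28 in cultured CD4+ cells (ratio 0.384, q = 0.33; 0.329, q = 0.24 without replicate 1). Among 9 type 1 and activation cytokines none passed in limma, and 3 had an unadjusted p under 0.05, against 6820 of all 45037 probe sets. That background, also used for lists below, counts probe sets, with those that have no gene symbol. The share over genes was not counted. Ifng read 8.43, 11.51, 10.54, 7.85 and 11.80 in NKT-like cells, against 6.84, 11.65 and 11.52 in cultured CD4+ cells, and its ratio was 1.02 with all arrays (q = 0.87) and 0.34 without replicate 1 (q = 0.33).

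Il4 and Il13 are neighbours on mouse chromosome 11, and the genes beside them were lower as well. In RefSeq order Kif3a, Il4, Il13 and Rad50 formed a run of 4 measured genes that all passed as lower, with ratios of 0.0887, 0.0151, 0.0339 and 0.629. Kif3a, which encodes a kinesin motor subunit, read 7.04, 7.25, 7.36, 7.45 and 7.31 in NKT-like cells, against 11.25, 10.45 and 10.63 in cultured CD4+ cells (q = 4.7e-06; ratio 0.104 without replicate 1), and all 4 of its probe sets passed. Rad50, a DNA repair gene, differed by little and its call was lost without replicate 1 (q = 0.013) and without 6 of the other arrays of the 8 (q up to 0.043). Surface genes of type 2 helper cells also included lower members, 2 of 10. Ccr8 had 5.78 ± 0.22 in NKT-like cells and 8.46 ± 0.47 in cultured CD4+ cells (ratio 0.155, q = 1.6e-05; 0.129 without replicate 1), and Ccr4 had a ratio of 0.397 (q = 0.00036; 0.354).

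The reverse was seen on chromosome 14, where Gzme, Gzmd and Gzmg formed a run of 3 measured neighbours that were all higher. Further runs of at least 3 passing neighbours were all lower in NKT-like cells. On chromosome 19 they were Cd5, A430093F15Rik, Cd6 and Slc15a3 (ratios 0.101, 0.208, 0.207 and 0.241), on chromosome 15 Tg, Sla and Ccn4 (0.0704, 0.172 and 0.23), and on chromosome 10 Ddt, Gstt3 and Gstt1 (0.295, 0.537 and 0.441). The calls of Slc15a3, Ccn4 and Gstt1 were lost without cultured CD4+ replicate 2 or 3 (q up to 0.034, 0.023 and 0.035), that of Gstt1 also without cultured CD4+ replicate 1 or NKT-like replicate 3, and that of Slc15a3 without any NKT-like array but replicate 3. Cd5 and Cd6 encode related scavenger receptors that restrain T cell receptor signals. Cd5 read 7.33, 6.55, 8.05, 7.81 and 6.07 in NKT-like cells, against 9.79, 10.78 and 10.83 in cultured CD4+ cells (q = 0.0021; ratio 0.0802 without replicate 1, with a q of up to 0.019 without replicate 2 or 3). Sla, which encodes an adaptor that lowers the surface receptor, had 8.92 ± 0.76 in NKT-like cells and 11.46 ± 0.26 in cultured CD4+ cells (q = 0.0018; up to 0.015 without cultured CD4+ replicate 2 or 3), and all 4 of its probe sets passed. Of 20 genes of the receptor complex and its proximal signals, 2 were lower, Cd5 and Cd6, and 2 higher, the Tec family kinase gene Txk (ratio 8.05, q = 0.00025; 8.45 without replicate 1) and the phosphatase gene Ubash3b (3.86, q = 0.0021; 3.38, q = 0.0097; up to 0.011 without cultured CD4+ replicate 2 or 3).

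Interferon-induced genes went in both directions. Of 13 membrane proteins and GTPases, 2 were higher, both of the IFITM family that blocks virus entry, and 6 were lower, all GTPases that defend cells against intracellular pathogens. Ifitm1 read 13.62, 13.88, 13.91, 13.85 and 13.99 in NKT-like cells, against 9.36, 10.54 and 10.65 in cultured CD4+ cells, a ratio of 12.7 (q = 8.8e-06) and 9.53 without cultured CD4+ replicate 1. Gbp2 read 6.84, 7.37, 7.85, 7.75 and 6.62 in NKT-like cells, against 12.64, 12.20 and 12.23 in cultured CD4+ cells, a ratio of 0.0297 (q = 2.7e-06) and 0.0328. Iigp1 read 7.05, 6.13, 8.56, 6.12 and 5.60 in NKT-like cells, against 12.13, 11.36 and 11.46 in cultured CD4+ cells, a ratio of 0.0322 (q = 0.00029) and 0.038. For Gbp2 the NKT-like mean of 7.28 was also below naïve CD8+ cells (8.93) and activated CD8+ cells (11.13), while Ifitm1 in NKT-like cells, at 13.85, was above both (7.36 and 7.92). Ifi47, Irgm2, Igtp and Irgm1 had ratios of 0.192, 0.21, 0.232 and 0.255, and of 0.213, 0.227, 0.263 and 0.299 without replicate 1, all still passing. Ifitm2 had a ratio of 3.99 (q = 0.0044; 2.75 without replicate 1), and its call was lost without NKT-like replicate 3, 4 or 5 (q up to 0.012).

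Promoters of these genes are shown because 6 GTPase genes passed as lower and Ifitm1 as higher. The other GTPase genes of the list, Gbp3, Gbp6 and Gbp7, did not pass (ratios 0.554, 0.216 and 0.807, and 0.553, 0.308 and 0.823 without cultured CD4+ replicate 1). The RefSeq table (GRCm38.p6) gave 250 bases before and 50 after the start for 11 of the 13 genes. The letters GAAA, any 2 bases and GAAA again, the core of the interferon-stimulated response element, were searched on both strands, where matches may overlap. They were found for 8 of the 11 genes, namely 4 of 5 that were lower, 1 of 2 that were higher and 3 of 4 that did not pass, and in 3.44% of all 32851 promoters. A match describes the letters only. Capitals mark the matches in Gbp2 at chr3:142620413-142620712 (+ strand), Igtp at chr11:58199306-58199605 (+ strand) and Irgm1 at chr11:48871371-48871670 (- strand), and Ifitm1 at chr7:140967826-140968125 (+ strand) had none in this window.
Gbp2: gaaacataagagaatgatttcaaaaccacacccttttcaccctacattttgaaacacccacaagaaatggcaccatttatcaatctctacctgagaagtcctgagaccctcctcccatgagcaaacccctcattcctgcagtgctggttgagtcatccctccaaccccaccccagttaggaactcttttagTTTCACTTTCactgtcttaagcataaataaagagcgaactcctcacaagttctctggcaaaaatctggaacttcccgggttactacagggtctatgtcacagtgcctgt
Igtp: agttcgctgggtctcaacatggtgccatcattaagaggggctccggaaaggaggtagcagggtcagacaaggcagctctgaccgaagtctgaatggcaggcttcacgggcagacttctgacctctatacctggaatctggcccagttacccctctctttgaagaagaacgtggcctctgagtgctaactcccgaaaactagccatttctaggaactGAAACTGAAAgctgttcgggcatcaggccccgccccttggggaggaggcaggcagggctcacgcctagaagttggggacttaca
Irgm1: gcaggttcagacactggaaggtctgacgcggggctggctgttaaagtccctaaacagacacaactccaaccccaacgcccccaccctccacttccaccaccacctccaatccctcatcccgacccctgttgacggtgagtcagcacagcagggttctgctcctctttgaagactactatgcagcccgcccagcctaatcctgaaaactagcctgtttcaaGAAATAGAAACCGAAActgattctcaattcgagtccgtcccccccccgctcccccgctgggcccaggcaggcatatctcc
Ifitm1: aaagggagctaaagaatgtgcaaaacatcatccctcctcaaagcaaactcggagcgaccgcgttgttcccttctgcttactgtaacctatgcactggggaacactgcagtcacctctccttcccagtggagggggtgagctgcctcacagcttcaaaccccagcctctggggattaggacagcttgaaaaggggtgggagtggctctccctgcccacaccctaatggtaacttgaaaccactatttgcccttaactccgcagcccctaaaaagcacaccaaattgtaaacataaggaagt

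The match lay 59 bases before the transcript start in Gbp2, 34 in Igtp and 30 and 24 in Irgm1. The level of Igtp was 9.97, 10.17, 10.26, 10.24 and 8.99 in NKT-like cells, against 12.39, 11.82 and 11.89 in cultured CD4+ cells, and that of Irgm1 was 8.41, 8.81, 8.95, 8.95 and 8.00, against 11.05, 10.40 and 10.34. Cultured CD4+ replicate 1 was the highest array for both genes, and the ratios without it, given above, were closer to 1 and still passed. Of 22 type I interferon antiviral genes only the RNA sensor gene Ifih1 passed, as lower (7.01 ± 0.14 in NKT-like cells, 9.04 ± 0.43 in cultured CD4+ cells, ratio 0.245, q = 0.00012; 0.206 without replicate 1). Ifi27l2a, an interferon-induced gene outside the lists, read 6.92, 6.81, 7.55, 7.09 and 6.79 in NKT-like cells, against 12.94, 11.99 and 11.98 in cultured CD4+ cells (ratio 0.0259, q = 6.4e-07; 0.0323).

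Genes of suppression were divided. Among 13 suppressive mediators 3 were higher and 1 lower, and among 13 inhibitory receptors and their ligands none was higher and 4 were lower. Fgl2, which encodes a secreted fibrinogen-like protein with inhibitory activity, read 9.54, 10.10, 10.42, 10.42 and 9.17 in NKT-like cells, against 4.57, 4.66 and 5.06 in cultured CD4+ cells, a ratio of 35.9 (q = 1.5e-06) and 33.6 without cultured CD4+ replicate 1. Esm1, which encodes the proteoglycan endocan, read 8.60, 10.53, 11.27, 11.30 and 10.70 in NKT-like cells, against 4.82, 6.21 and 6.14 in cultured CD4+ cells, a ratio of 27.1 (q = 0.00043) and 19.8. Both genes were at or below 4.90 in naïve and activated CD8+ cells. Tnfrsf11b, the decoy receptor osteoprotegerin, had a ratio of 2.79 (q = 0.0027; 2.78 without replicate 1, with a q of up to 0.02 without replicate 2 or 3). Both of its 2 probe sets passed as higher, and this ratio holds only for the set that stands for the gene. At that set the NKT-like signal was 2.84 times the naïve one. The paper reports a larger rise over naïve cells for Tnfrsf11b, so the ratio given here may understate the difference. Ido1, which encodes a tryptophan-degrading enzyme, was lower with a ratio of 0.395 (q = 3.6e-05; 0.428), at 5.41 ± 0.10 in NKT-like cells and 6.75 ± 0.22 in cultured CD4+ cells.

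The lower inhibitory genes were Cd200, Btla, Cd200r1 and Cd274. Cd200, a ligand that quiets myeloid cells, read 5.58, 6.44, 5.02, 5.20 and 6.00 in NKT-like cells, against 9.59, 10.08 and 10.30 in cultured CD4+ cells, a ratio of 0.0494 (q = 8.4e-06) and 0.043 without replicate 1. Btla, an inhibitory receptor of lymphocytes, read 6.41, 6.41, 6.20, 6.43 and 6.50 in NKT-like cells, against 9.18, 10.08 and 10.11 in cultured CD4+ cells, a ratio of 0.0945 (q = 5.1e-06) and 0.0765. Neither gene overlapped between groups, and Btla was at 9.09 in naïve and 9.56 in activated CD8+ cells, so the low level was that of the NKT-like cells. Cd200r1, the receptor of Cd200, had a ratio of 0.325 (q = 0.0061; 0.25) and Cd274, which encodes PD-L1, one of 0.479 (q = 0.0025; 0.454), with q of up to 0.044 and 0.021 without cultured CD4+ replicate 2 or 3. The call of Cd200r1 was also lost without NKT-like replicate 1, 2, 3 or 5. Ctla4 passed only without replicate 1 (ratio 0.284, q = 0.093 with all arrays; 0.16, q = 0.0034), since cultured CD4+ replicate 1 read 9.59 and replicates 2 and 3 read 12.07 and 12.08, against 8.62 to 10.06 in NKT-like cells. Havcr2, which encodes TIM-3, was above all cultured CD4+ arrays on each NKT-like array but did not pass (9.36 to 11.16 against 7.66, 9.24 and 9.16, ratio 3.5, q = 0.03; 2.45, q = 0.072 without replicate 1).

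Receptors for lipid mediators and nucleotides differed at 6 of 17 genes, 4 higher and 2 lower. Ptger3, a prostaglandin E2 receptor, read 8.63, 8.39, 8.11, 9.19 and 7.62 in NKT-like cells, against 4.56, 5.18 and 5.49 in cultured CD4+ cells, a ratio of 9.93 (q = 9.8e-05) and 8.3 without cultured CD4+ replicate 1. P2ry14, a receptor of UDP-sugars, had 11.17 ± 0.48 in NKT-like cells and 7.93 ± 0.75 in cultured CD4+ cells (ratio 9.44, q = 0.00018; 7.01). Ptgir, the prostacyclin receptor, read 4.39, 4.36, 4.81, 4.99 and 4.61 in NKT-like cells, against 7.34, 8.24 and 8.35 in cultured CD4+ cells, a ratio of 0.0985 (q = 7.3e-06) and 0.079. A second prostaglandin E2 receptor, Ptger2, was lower (ratio 0.247, q = 0.00016; 0.213), so members of the prostaglandin receptor family lay on both sides. The calls of Ltb4r1, the leukotriene B4 receptor (7.33, q = 0.003), and the orphan receptor Gpr160 (3.42, q = 0.0075) were lost without replicate 1, at q of 0.013 and 0.017, and without replicate 2 or 3 (up to 0.017 and 0.05). The call of Gpr160 was also lost without NKT-like replicate 1, 2 or 3 or any naïve or activated array.

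Among other receptors, few passed. Of 16 chemokine and homing receptors 2 were lower, Cxcr4 (5.09 ± 0.15 in NKT-like cells, 8.04 ± 0.50 in cultured CD4+ cells, ratio 0.129, q = 1.4e-05; 0.156 without replicate 1) and the lymph node homing receptor Ccr7 (ratio 0.246, q = 0.009), whose call was lost without replicate 1 (q = 0.031) and without any other of the 8 arrays (up to 0.045). Ccr2 did not pass at the set that stands for it (ratio 1.69, q = 0.2), where NKT-like cells had 9.01 and naïve CD8+ cells 9. The paper reports a strong rise of Ccr2 over naïve cells in NKT-like but not in cultured CD4+ cells, so this ratio may understate the difference. Of 22 cytokine receptors, Tgfbr2 was higher (2.89, q = 0.00077; 2.9) while Tgfbr3, a co-receptor of the same ligand family, was lower (0.13, q = 0.0013; 0.119), as was the IL-12 receptor chain Il12rb2 (0.32, q = 0.0015; 0.264). Of the 3 probe sets of Tgfbr2 and the 2 of Tgfbr3, only 1 each passed. Calls of Tgfbr3 and Il12rb2 were lost without cultured CD4+ replicate 2 or 3 (q up to 0.012 and 0.013). Tnfrsf4, which encodes the costimulatory receptor OX40, read 9.65, 9.79, 11.59, 10.34 and 9.80 in NKT-like cells, against 13.12, 13.22 and 13.25 in cultured CD4+ cells, a ratio of 0.128 (q = 0.00078; 0.125). The costimulatory receptor 4-1BB, encoded by Tnfrsf9, was higher (11.65 ± 0.21 and 10.43 ± 0.45, ratio 2.33, q = 0.0025; 1.95). Of 16 chemokine ligands only Cmtm7, a chemokine-like MARVEL protein gene, passed (12.20 ± 0.32 in NKT-like cells, 9.75 ± 0.04 in cultured CD4+ cells, ratio 5.47, q = 3.4e-05; 5.43).

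Adhesion genes were mostly higher where they passed, 5 of 21 against 1 lower. Tjp1, which encodes the tight junction scaffold ZO-1, read 9.92, 10.48, 10.37, 9.96 and 10.13 in NKT-like cells, against 4.84, 5.34 and 5.12 in cultured CD4+ cells, a ratio of 33.7 (q = 1.1e-07) and 30.7 without cultured CD4+ replicate 1. Cdh1, which encodes E-cadherin, a known ligand of the Klrg1 receptor, read 6.62, 7.15, 8.17, 6.65 and 5.75 in NKT-like cells, against 3.90, 3.60 and 3.85 in cultured CD4+ cells (ratio 8.5, q = 0.00098; 8.84). Both were low in activated CD8+ cells, at 4.90 and 3.88. Emilin2, an extracellular matrix gene, had a ratio of 18 (q = 3.4e-05; 14) and the integrin gene Itgav one of 2.94 (q = 0.0017; 2.57). Cd24a, a sialoglycoprotein gene, was lower, at 4.77, 5.70, 6.93, 6.28 and 5.57 in NKT-like cells, against 11.17, 10.22 and 10.28 in cultured CD4+ cells (ratio 0.0383, q = 9e-05; 0.0474), and it was high in naïve and activated CD8+ cells (10.84 and 10.47).

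Several of the largest differences lay in genes outside the lists. Nts, which encodes the neuropeptide neurotensin, read 4.98, 4.79, 4.76, 5.14 and 4.88 in NKT-like cells, against 11.22, 10.63 and 10.76 in cultured CD4+ cells, a ratio of 0.0161 (q = 5.8e-09) and 0.0181 without cultured CD4+ replicate 1. Akr1c18, a steroid reductase that inactivates progesterone, read 7.14, 8.15, 8.10, 9.65 and 9.80 in NKT-like cells, against 13.86, 13.77 and 13.79 in cultured CD4+ cells (ratio 0.0264, q = 0.00012; 0.0269). Ajuba, a LIM domain scaffold gene, read 6.20 to 6.86 in NKT-like cells, against 11.30, 11.46 and 11.32 in cultured CD4+ cells (ratio 0.032, q = 4.7e-08; 0.0314). All 3 were at 7.10 or below in naïve and activated CD8+ cells, so the cultured CD4+ cells held the high level. The cytokine gene Lif (0.0413; 0.0462 without replicate 1), the chemokine gene Cxcl3 (0.0353; 0.0455), the receptor gene Calcrl (0.0578; 0.061), the tetraspanin gene Cd81 (0.0697; 0.0706), Gpm6b (0.0617; 0.0791) and the thyroglobulin gene Tg (0.0704; 0.0683) followed. Ecm1, which encodes extracellular matrix protein 1, was highest in replicate 1, at 11.96, against 9.81 and 9.62 in cultured CD4+ replicates 2 and 3, and its ratio was 0.0627 with all arrays and 0.105 without replicate 1.

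On the higher side, Ms4a4b, a membrane protein gene of naïve and type 1 T cells, read 12.31, 12.67, 11.35, 11.63 and 11.46 in NKT-like cells, against 6.25, 7.26 and 7.43 in cultured CD4+ cells, a ratio of 29.9 (q = 9e-06) and 23.2 without cultured CD4+ replicate 1. Atp8b4, which encodes a P4-type ATPase, read 10.64 to 11.43 in NKT-like cells, against 5.98, 6.73 and 7.02 in cultured CD4+ cells (ratio 21.1, q = 2.6e-06; 17.2). These 2 genes were also high in naïve CD8+ cells (13.21 and 8.97). Khdc1a and Klhl30 were instead low in naïve CD8+ cells (4.76 and 5.42), with ratios of 28.3 (q = 1.2e-05; 28.8) and 18.1 (q = 7.5e-07; 18.5) between NKT-like and cultured CD4+ cells.

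Apoptosis and cell cycle genes were lower where they passed, apart from Bid and Cdkn2b. Of 22 BCL2 family and caspase genes 1 was higher and 4 were lower, with a median of -0.04. Bid, Casp4 and Casp6 had ratios of 2.95, 0.106 and 0.131, and of 2.54, 0.101 and 0.138 without cultured CD4+ replicate 1. The lower genes also included the inflammatory caspase gene Casp1 (7.26 ± 0.66 in NKT-like cells, 9.40 ± 0.09 in cultured CD4+ cells, ratio 0.226, q = 0.0017; 0.229 without replicate 1) and the death receptor gene Fas (ratio 0.535, q = 0.0036; 0.52), with q of up to 0.014 and 0.025 without cultured CD4+ replicate 2 or 3, and for Fas also without NKT-like replicate 5. Cdkn2b, which encodes the CDK inhibitor p15, read 10, 10.47, 9.66, 8.96 and 10.35 in NKT-like cells, against 7.34, 7.35 and 7.52 in cultured CD4+ cells (ratio 5.6, q = 0.001; 5.48).

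Of 23 mitosis genes 3 were lower (Ndc80, Aurkb and Kif23) and of 23 DNA replication genes 3 (Pcna, Lig1 and Gins1), and none was higher. The ratios of Ndc80, Aurkb, Kif23, Pcna, Lig1 and Gins1 were 0.381, 0.396, 0.452, 0.526, 0.53 and 0.376, and 0.369, 0.388, 0.447, 0.517, 0.504 and 0.323 without cultured CD4+ replicate 1. The medians, -1.15 and -0.80, were -1.22 and -0.84 without cultured CD4+ replicate 1, and 18 and 16 members did not overlap between groups, against 14.6% of all genes. In limma 22 and 19 of the 23 members had an unadjusted p under 0.05, against 6820 of all 45037 probe sets, a background of probe sets and not of genes. The averages of the mitosis list were 9.44, 9.18, 8.11, 9.24 and 8.86 in NKT-like cells, against 9.86, 10.16 and 10.18 in cultured CD4+ cells. NKT-like replicate 3 was the lowest, also for Top2a (9.69, against 10.16 to 11.03 in the other NKT-like arrays) and Mki67 (9.21, against 9.46 to 10.78), proliferation genes that did not pass (ratios 0.403 and 0.424, q = 0.019 and 0.07; 0.405 and 0.383 without cultured CD4+ replicate 1). The calls of these lists depended on single arrays. The count of mitosis genes was 1 without cultured CD4+ replicate 1, NKT-like replicate 2 or either naïve array. It was 0 without cultured CD4+ replicate 2 or 3 or NKT-like replicate 5, and 5 without NKT-like replicate 3. Without cultured CD4+ replicate 1, the calls of Ndc80, Aurkb and Kif23 were all lost (q = 0.012, 0.02 and 0.025). Aurka, which had not passed with all arrays (q = 0.012), passed as lower there (q = 0.0088). The count of replication genes was 0 without cultured CD4+ replicate 2 or 3. The call of Gins1 was also lost without any single NKT-like array or either naïve array (q up to 0.054 over all arrays).

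Few metabolic genes passed, and in lists of this size 0 or 1 passing member is near the share of all genes, 3.01%. None of 23 oxidative phosphorylation subunits and none of 19 cholesterol and fatty acid synthesis genes passed in limma, with medians of -0.08 and -0.24. In each list 3 members had an unadjusted limma p under 0.05, against 6820 of all 45037 probe sets. At that p were 7 of 23 glycolysis and hypoxia-induced genes and 11 of 20 ATF4 targets and amino acid supply genes. The medians of these 2 lists were -0.22 and 0.57. Of 23 glycolysis and hypoxia-induced genes only Egln3, a prolyl hydroxylase that acts on hypoxia-inducible factor, passed, at 7.37, 6.24, 7.65, 7.79 and 6.19 in NKT-like cells, against 9.79, 10.59 and 10.59 in cultured CD4+ cells (ratio 0.103, q = 0.00045; 0.0858 without replicate 1). Of 20 ATF4 targets and amino acid supply genes 2 were higher, Asns for asparagine synthesis (3.11, q = 0.0019; 2.7) and Sesn2 (2.0, q = 0.0067), whose call was lost without replicate 1 (q = 0.019) and without any other of the 8 arrays but NKT-like replicate 4 (up to 0.026). Of 23 early genes of the AP-1, EGR and NR4A families, Batf and Egr2 were lower, and Egr2 read 5.88, 7.53, 7.46, 7.28 and 6.93 in NKT-like cells, against 9.89, 10.42 and 10.52 in cultured CD4+ cells (ratio 0.104, q = 0.00021; 0.091).

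Markers of other cells were measured beside these results. None of 14 B cell and MHC class II genes and none of 15 myeloid and dendritic cell genes passed in limma. Of them 0 and 1 had an unadjusted p under 0.05, against 6820 of all 45037 probe sets. The signal summed over the B cell and MHC class II list on the linear scale was 1140 to 1750 in NKT-like arrays, against 3690, 1200 and 1290 in cultured CD4+ arrays, so cultured CD4+ replicate 1 was the highest. Over the myeloid list the sum was 1450 to 1660 in NKT-like arrays, against 1600, 1290 and 1410 in cultured CD4+ arrays, and 8 of 15 members averaged below the median of all values in each group. Of 10 red cell precursor markers only Car2 passed, as higher (ratio 4.21, q = 0.00029; 4.21 without replicate 1). The list was summed to 2410 to 4680 in NKT-like arrays, against 3850, 5240 and 5240 in cultured CD4+ arrays. On the log2 scale the mean level of the same list was 6.76 to 6.95 in NKT-like arrays, against 6.79, 6.72 and 6.77 in cultured CD4+ arrays. Its median difference was -0.03, so the larger sums in cultured CD4+ arrays were not a rise of the list as a whole. Of 4 measured gamma-delta T cell markers the variable segment Trgv4 was higher, at 8.02, 7.99, 9.21, 8.74 and 7.86 in NKT-like cells, against 5.69, 5.54 and 5.54 in cultured CD4+ cells (ratio 6.85, q = 0.00027; 7.1). The part of such cells in the results was not tested.

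The arrays of a group also differed among themselves. Over all genes the median SD was 0.145 log2 units among NKT-like arrays, against 0.173 among cultured CD4+ arrays and 0.0784 for cultured CD4+ replicates 2 and 3 alone. A range of at least 2-fold was seen for 1787 genes in the 5 NKT-like arrays, against 737 in the 3 cultured CD4+ arrays, and cultured CD4+ replicates 2 and 3 were that far apart at 14 genes. The widest ranges among NKT-like arrays, 4.73 log2 units each, belonged to the Ly49 genes Klra5 and Klra7. Klra7 read 7.94, 7.27, 4.26, 8.99 and 7.71, so replicate 3 was at the level of cultured CD4+ cells (4.34, 4.36 and 4.4) and replicate 4 the highest. NKT-like replicates 3 and 4 were the lowest for Klra5, Klrc1, Klrk1, Klrd1, the chemokine gene Xcl1 and Il18r1, a chain of the IL-18 receptor, and both high for Maf, Il10 and Il24. Il24, a cytokine of the IL-10 family, read 8.17, 7.88, 11.86, 11.11 and 8.12 in NKT-like cells, against 11.09, 12.53 and 12.45 in cultured CD4+ cells. Xcl1 read 7.79, 9.89, 6.44, 6.44 and 10.91 in NKT-like cells, against 5.78, 5.82 and 6.02 in cultured CD4+ cells. Ifng had another order, with replicates 1 and 4 the lowest.

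Effector genes were among those in which cultured CD4+ replicate 1 differed from replicates 2 and 3. Of 10 perforin and granzyme genes 7 were at least 2-fold below both other arrays, as were 6 of 13 helper cytokines, and the medians of the 2 lists lay 1.72 and 0.99 log2 units lower in replicate 1. The chemokine gene Ccl3 read 10.43 in it, against 13.38 and 13.36, and Ccl1 read 8.16, against 11.23 and 11.39. In the other direction Msc, which encodes the factor musculin, read 10.80, against 6.98 and 6.83, the MHC class II gene H2-Aa 9.33, against 5.84 and 6.16, and Cd74, the invariant chain of MHC class II, 10.77, against 7.89 and 7.97. NKT-like arrays were at 6.50 to 6.85 for Msc, 5.74 to 6.23 for H2-Aa and 7.36 to 7.82 for Cd74. The genes that were low in replicate 1 therefore widened the difference from NKT-like cells for granzymes, which were high there, and narrowed it for cytokines, which were low. Of the 108 passing genes named by the rule, 94 passed without replicate 1 and 76 without each single array of the 12 in turn.

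**Figure D5:**
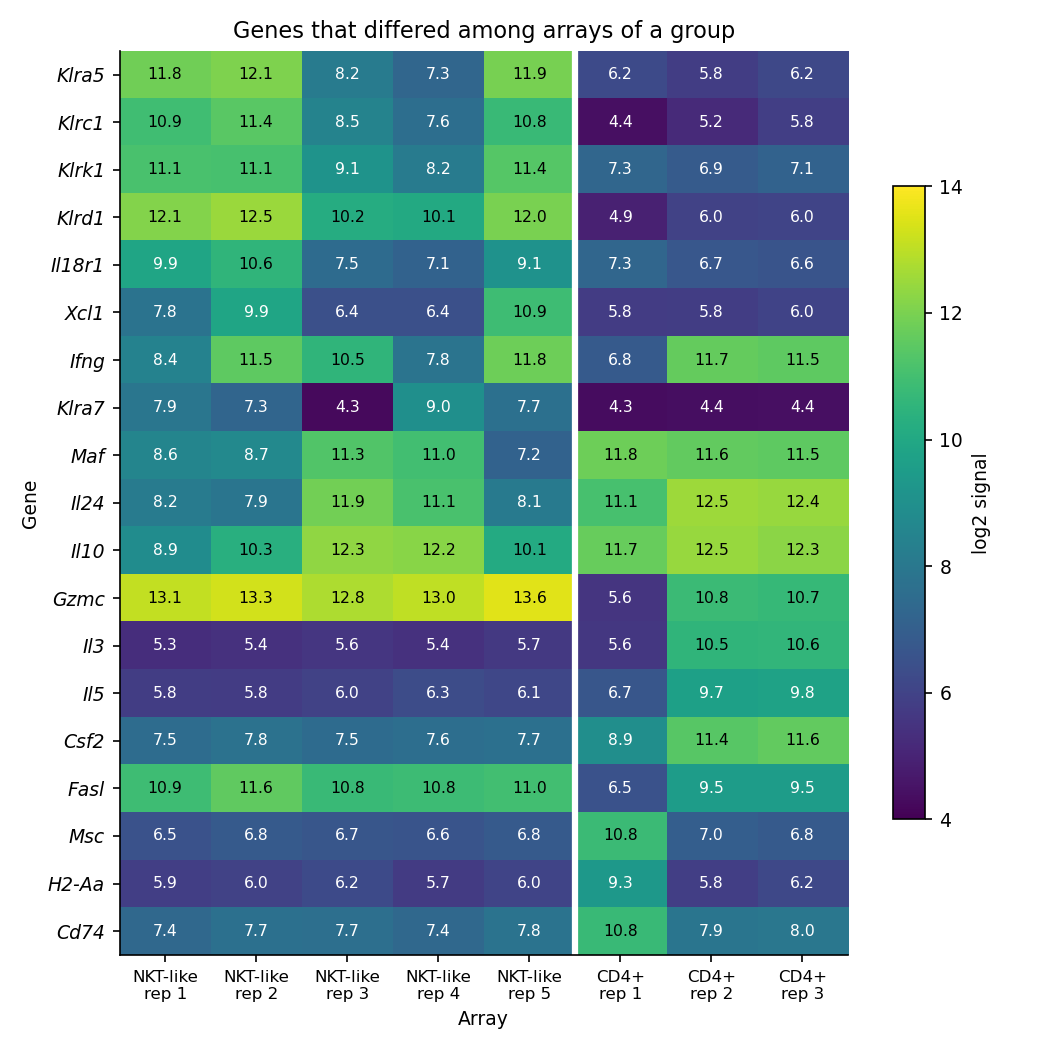
log2 signal (colour and number) of genes that differed among arrays of a group, with the 5 NKT-like arrays left of the 3 cultured CD4+ arrays. NKT-like replicates 3 and 4 are low for Klra5 (8.17 and 7.32) and high for Il24 (11.86 and 11.11), and cultured CD4+ replicate 1 is low for Gzmc (5.56) and Il3 (5.64) and high for Msc (10.80).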

How the data were processed

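Each of the 12 samples was hybridised to 1 Affymetrix whole-genome mouse array. The deposited values are log2 signals that the authors made with RMA (background correction, quantile normalization and a summary per probe set), and the sources used here do not state whether all arrays were normalized together. After 64 control probe sets were left out, 45037 were tested. Of these 34945 have 1 gene symbol in the platform annotation, 932 several and 9160 none, which gives 18193 genes. The probe set with the highest mean stands for a gene, with sets that bind several sequences used only for lack of another. A model of the 4 groups was fitted with limma 3.58.1 (R 4.3.3) to all 12 arrays, and the contrast NKT-like minus cultured CD4+ was tested two-sided with moderated variances (8 residual degrees of freedom and a prior of 3.03). A Storey q-value was taken over all probe sets. The p-values rest on the spread between arrays within all 4 groups, so that of the naïve and activated CD8+ arrays is part of it. Columns of all 12 arrays were used. The fit was tested on simulated data.

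The comparison, the 34 lists (556 of 617 entries measured) and the rule for named genes were chosen with earlier results of these arrays known. The rule took the coreceptor genes, the 20 largest passing ratios in each direction without overlap, up to 4 passing members of each list in each direction, and the 2 highest members of a list without any. It gave 118 genes, and a further 38, and some list members given as context, were named after their values were seen. Promoters were read from a RefSeq table of build GRCm38.p6. Array number, 5 and 3, limits the precision. Alternatives were the 8 arrays alone, other adjustment, moderation, weights, scaling and filtering, the mean of a gene's probe sets, a replicate block and leaving out each array.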

Additional observations from a re-analysis of the deposited data

Results flagged for a closer look

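Among the 156 named genes, 10 had a NKT-like array far from the other 4, a gap that chance alone gives in about 1 of 20 groups. Esm1 was 8.60 in replicate 1, against 10.53 to 11.30 in the others. In replicate 2, Ifih1 was 7.25, against 6.91 to 6.99, and Fasl 11.57, against 10.77 to 10.96. In replicate 3, Cxcl3 was 3.99, against 3.63 to 3.70, Slc15a3 6.63, against 5.15 to 5.48, and Aurka 7.53, against 8.66 to 8.91. In replicate 4, Calcrl was 5.93, against 3.91 to 4.38, and Sesn2 8.04, against 8.45 to 8.57. In replicate 5, Scd2 was 11.82, against 12.33 to 12.51, and Igtp 8.99, against 9.97 to 10.26. With the outlying array left out, Aurka, which had not passed with all arrays, passed as lower, and Fasl and Scd2 again did not pass. The other 7 genes passed with and without it.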

How the results depend on the processing

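With 316 probe sets higher and 447 lower in NKT-like cells, counts stayed within 1.5 times of these with the 8 arrays alone (279 and 405), Benjamini-Hochberg adjustment (305 and 429), a trended robust prior (367 and 507), quantile normalization (343 and 433), median centring (279 and 390) and a filter on dim probe sets (381 and 526). Array weights gave 422 higher and 763 lower. Leaving out single arrays gave 175 to 323 higher and 264 to 472 lower, the lowest without cultured CD4+ replicate 3. With a replicate block the counts were 118 and 186. The block lost the calls of 44 named genes. The labels do not say whether the replicate numbers pair the samples. Deviations of same-numbered arrays correlated at 0.06, 0.03 and -0.19. These values cannot decide it, since the cultured CD4+ group has 3 arrays and its replicate 1 stood apart. Genes that turned direction had not passed: Ltb was 1.00 with array weights and 0.51 to 1.14 without single arrays, Hmgcs1 0.909 to 1.46, Ighm 0.888 to 1.30 and 0.997 as the mean of its probe sets, and Ifng 0.478 with array weights and 0.34 to 1.80 without single arrays. The mitosis count was 8 with array weights, 7 with the filter, 5 with the robust prior, 1 with centring and 0 with the block. The causes were not tested. Ratios of genes near the lower end of the scale depend on array background.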

Other observations

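NKT-like replicate 2 held 44951 distinct values among the 45101 deposited, against 38984 to 40600 on the other 11 arrays. Without this array 301 probe sets were higher and 389 lower.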
